A study of Mus musculus with 6 samples.

Results

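The genes described here encode collagens, laminins and other structural proteins of the extracellular matrix, and the measurement is where the nuclear receptor COUP-TFII (gene Nr2f2) sat on chromatin near them. They were chosen by symbol: protein-coding genes named as collagen chains (Col, a number, a, a number) or laminin chains (Lama, Lamb, Lamc), plus Nid1, Nid2, Fn1, Fbn1, Fbn2, Eln, Dcn, Lum, Bgn, Postn, Tnc, Vcan and Sparc. This gave 68 of the 21887 protein-coding genes in the RefSeq table. Chromatin immunoprecipitation with sequencing (ChIP-seq) was carried out on pooled mesonephroi of CD-1 mouse embryos at E14.5, with 2 COUP-TFII samples from XX embryos and 2 from XY embryos, and 2 samples of input pooled from both. The labels name no mutation and no treatment, so the groups compared differ in their sex chromosomes. The authors deposited 1 peak list per sex over its 2 samples, with 11175 XX peaks and 9846 XY peaks. Each peak is a 300 bp interval on mm10 with no height, score or p-value. There is therefore no spread between replicates and no test between the sexes, the depth behind each list is unknown, and a peak missing from 1 list may lie just below the authors' threshold. A peak was counted to the closest protein-coding gene up to 100 kb away, with distances taken from the centre of the peak and set to 0 inside a gene. XX and XY peaks with at least 1 bp in common are called shared and carry XX coordinates, and the others are called XX-only or XY-only.

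The mesonephros lies beside the fetal gonad and holds the Wolffian and Müllerian ducts, which are epithelial tubes set in mesenchyme. Mesenchymal cells secrete the interstitial matrix of fibrillar collagens, fibronectin, elastic microfibrils and proteoglycans. Basement membranes, made chiefly of laminins, collagen IV and nidogens, line the tubes and the blood vessels. COUP-TFII is abundant in mesenchyme and binds DNA as a dimer at repeats of the letters AGGTCA. The peaks come from whole mesonephroi, and cell types were not separated.

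Peaks were found at 42 of the 68 matrix genes (61.8%, against 42.2% of all protein-coding genes). At 28 genes at least 1 peak was shared by XX and XY mesonephroi. The basement membrane gene Nid2 led with 4 shared peaks, followed by the collagen I gene Col1a2 with 3. Col25a1, Col26a1, Col6a3, Col6a6, Dcn, Fbn2 and Lamb1 had 2 each, and 19 more genes had 1. Genes with 2 or more shared peaks were 9 of the 68 (13.2%), against 3.7% of all protein-coding genes. With a limit of 10 kb in place of 100 kb they were 5 (7.35%, against 2.56% of all other protein-coding genes). The matrix genes held 62 peaks of the XX list and 52 of the XY list, of which 40 were shared, 22 were XX-only and 12 were XY-only. An XX peak was present at 37 matrix genes (54.4%), against 36.9% of all protein-coding genes. An XY peak was present at 33 (48.5%), against 35.0%, and a shared peak at 28 (41.2%, exact 95% interval 29.4 to 53.8), against 28.2%. Matrix genes are long: the stretch of genome nearest to each, within 100 kb, had a median of 153 kb, against 45.0 kb over all protein-coding genes. Per megabase of that stretch, the matrix genes held 5.32 XX peaks, 4.46 XY peaks and 3.43 shared peaks, against 5.48, 4.92 and 3.75 over all protein-coding genes. The share of genes with a peak therefore stood above that of all genes, while the number of peaks per megabase did not.

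**Figure D1:**
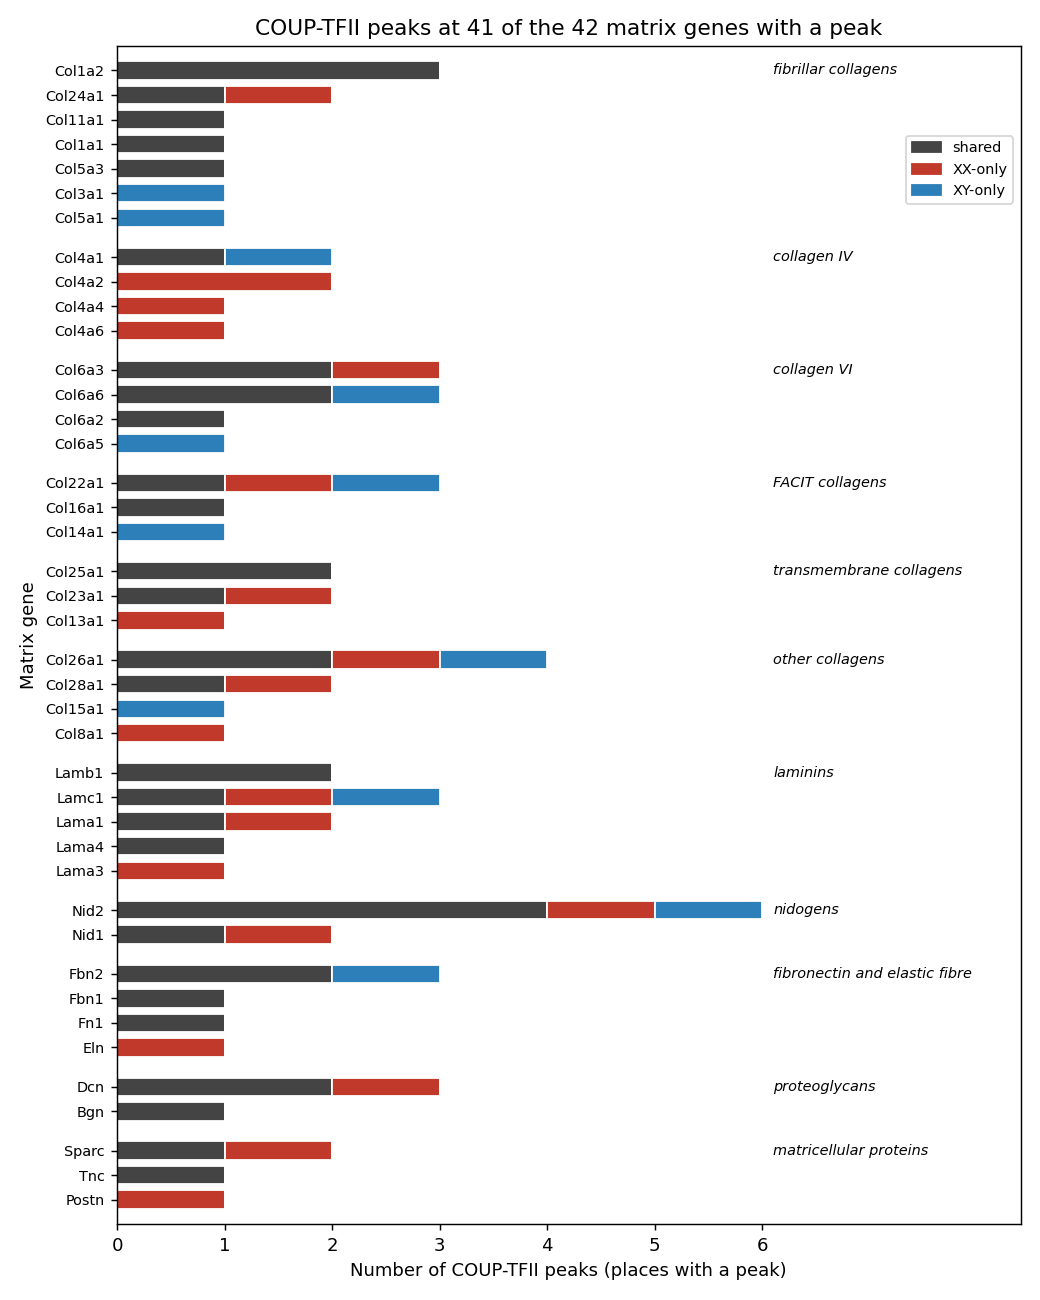
Number of COUP-TFII peaks (horizontal axis) at 41 of the 42 matrix genes with a peak (vertical axis), grouped by role, with shared peaks in grey, XX-only peaks in red and XY-only peaks in blue. Nid2 has 4 shared peaks and Col1a2 has 3, and the peaks of Col1a2, Col25a1 and Lamb1 are all shared.

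Nidogens link the laminin and collagen IV networks of basement membranes. Nid2 (gene 18074, chromosome 14, 19751257 to 19811787) had 5 XX and 5 XY peaks. Shared peaks lay at chr14:19733630-19733929 and chr14:19750905-19751204, which are 17.5 kb and 203 bp outside its lower-coordinate end, and at chr14:19769839-19770138 and chr14:19809004-19809303 inside the gene. The XX and XY centres of these 4 shared peaks were 92, 88, 38 and 8 bp apart. From the length of its stretch of genome, 0.506 shared peaks would fall to Nid2 at the average density, a figure that spreads peaks evenly and is no test. The last of the 4 lay 2.25 kb from Rtraf, which overlaps the end of Nid2 in the annotation, so its assignment to Nid2 rests on the rule that a peak inside a gene belongs to it. Nid2 also had an XX-only peak at chr14:19808134-19808433, whose centre was 878 bp from the nearest XY peak, and an XY-only peak at chr14:19728793-19729092, 22.3 kb outside the gene. Nid1 had 1 shared peak, 4.78 kb downstream of the gene, and 1 XX-only peak inside it. The stretches of both nidogens together held 18.5 shared peaks per megabase, against 3.75 over all protein-coding genes. This was the highest value of any role group and rests on 5 peaks over 0.271 Mb, 4 of them at Nid2. The other basement membrane groups, collagen IV and laminins, held 0.863 and 2.45 per megabase.

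Collagen IV chains form the sheet-like network of basement membranes, and their genes lie in head-to-head pairs. Only Col4a1 of the 6 genes had a shared peak, at chr8:11187508-11187807, 10.8 kb downstream of the gene. That peak overlapped the promoter window of Gm15418, a gene for a long noncoding RNA. Where Col4a1 and Col4a2 meet, each list had a peak, but at different places. The XX-only peak at chr8:11312938-11313237 lay on the Col4a2 side, and the XY-only peak at chr8:11312504-11312803 lay on the Col4a1 side. Their centres were 434 bp apart with a gap of 134 bp between them, so the rule of 1 shared base counted them as different. Col4a2 had a second XX-only peak at chr8:11340211-11340510, 27.6 kb inside the gene, which overlapped the promoter window of another gene, Gm46030. The other head-to-head pairs, Col4a3 with Col4a4 and Col4a5 with Col4a6, had no peak of either list between the genes or within 1 kb of the ends that face each other. Col4a4 and Col4a6 had 1 XX-only peak each, 27.6 kb and 58.5 kb from the nearer end of the gene, and Col4a3 and Col4a5 had no peak.

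Laminins are trimers of an alpha, a beta and a gamma chain. Shared peaks fell at Lama1 and Lama4, Lamb1 and Lamc1, so each chain class had at least 1 gene with one. Lama4, a chain of vessel and mesenchymal laminins, had a shared peak with its centre 44 bp from a gene end. At Lama1, the chain of the early embryonic trimer, the shared peak lay 219 bp from a gene end, and an XX-only peak lay 12.0 kb outside the gene. Lamb1 (chromosome 12, 31265146 to 31329644) had shared peaks at chr12:31248159-31248458, 16.8 kb upstream, and at chr12:31294289-31294588 inside the gene, and no peak in 1 list only. At the higher-coordinate end of Lamc1 (chromosome 1, 153218922 to 153332786), 652 bp beyond the gene, there was a shared peak at chr1:153333289-153333588. At the same end, with centres inside the gene, lay an XX-only peak at chr1:153332574-153332873 and an XY-only peak at chr1:153332191-153332490, with centres 383 bp apart and a gap of 83 bp. Lama3 and Lamb3, which encode chains found in laminins of stratified epithelia, had no shared peak: Lama3 had 1 XX-only peak, 51.1 kb from the nearer end of the gene, and Lamb3 had none. Lama2, Lama5, Lamb2 and Lamc3 also had no peak. Lama2, the main alpha chain of muscle basement membranes, has the longest stretch of genome of all 68 genes, 744 kb, to which 2.79 shared peaks would fall at the average density.

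**Figure D2:**
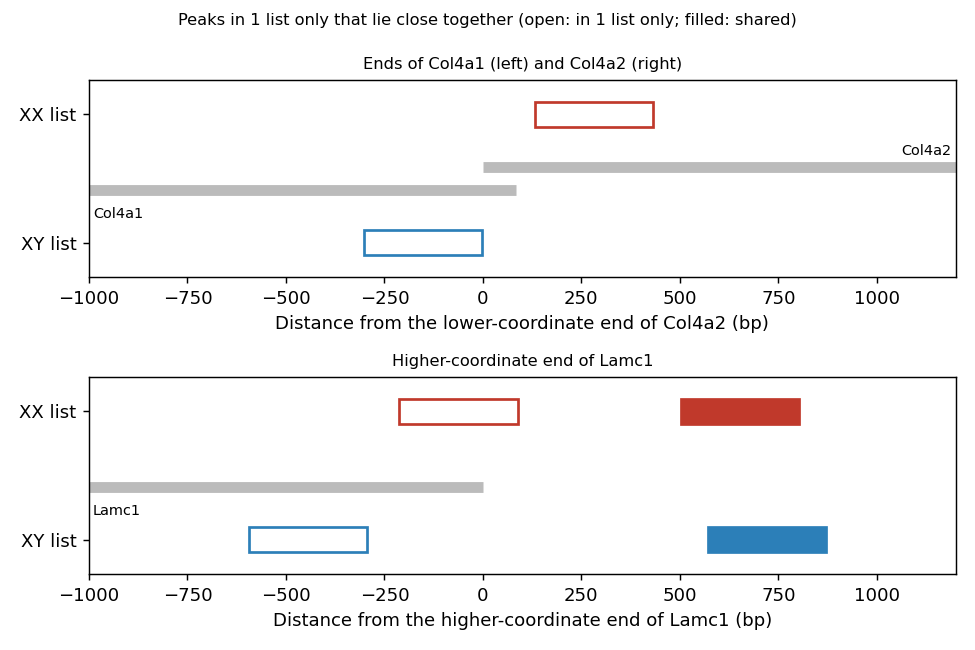
Peaks (boxes to scale, 300 bp each) where Col4a1 and Col4a2 meet (upper panel) and at 1 end of Lamc1 (lower panel), by distance in bp from a gene end, with gene bodies in grey, the XX list above and the XY list below. Open boxes are peaks in 1 list only: their centres are 434 bp apart at Col4a1 and Col4a2 and 383 bp apart at Lamc1.

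Fibrillar collagens build the tensile fibres of connective tissue. Both genes of collagen I, its most abundant member, had shared peaks. Col1a2 (gene 12843, chromosome 6, 4505618 to 4541543) had 3 XX and 3 XY peaks, all shared, at chr6:4456281-4456580, chr6:4489568-4489867 and chr6:4505712-4506011. They lay 49.2 kb and 15.9 kb upstream of its start and 243 bp after it. The last of these had the same coordinates in both lists, and the others were 7 and 49 bp apart between the lists. Casd1, the next protein-coding gene, lay 144 kb and 111 kb from the upstream peaks. Col1a1 had 1 shared peak, 7.23 kb outside its lower-coordinate end. Col5a3, a chain of collagen V, which helps to set fibril width, had a shared peak inside the gene, and Col11a1, of cartilage and embryonic mesenchyme, had one at its start. Col24a1 had a shared peak 9.02 kb downstream and an XX-only peak 105 bp upstream of its start.

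Col3a1 and Col5a1 had a peak in the XY list only, near the start. The Col3a1 peak, at chr1:45311357-45311656, was centred 32 bp upstream of the start, and the nearest XX peak lay 483760 bp away. The Col5a1 peak was centred 470 bp after the start, and the nearest XX peak lay 68051 bp away. Col5a2, which is next to Col3a1 with 24.6 kb between them, had no peak, and neither had the stretch between the genes. The cartilage genes Col2a1 and Col11a2, and Col27a1, had none.

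Collagen VI forms beaded filaments around cells. Col6a2 had a shared peak at its start. Col6a3 (chromosome 1, 90766860 to 90844001) had 2 shared peaks and an XX-only peak, all downstream of the gene: the shared ones at chr1:90744039-90744338 (22.7 kb) and chr1:90690863-90691162 (75.8 kb), and the XX-only one 8.56 kb away. The farthest of them lay nearly as close to Cops8, at 77.7 kb, and at 75.8 kb it is also the farthest shared peak given to any matrix gene. Col6a6 had shared peaks at chr9:105697933-105698232 and chr9:105719173-105719472, 8.66 kb and 29.9 kb inside its downstream end, and an XY-only peak near the middle of the gene. Col6a5 had 1 XY-only peak, and Col6a1 and Col6a4 had none.

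The fibril-associated (FACIT) collagens, which coat fibrils and link them to other matrix, had peaks at 3 of 9 genes: a shared peak at the start of Col16a1, a shared, an XX-only and an XY-only peak inside Col22a1, and an XY-only peak inside Col14a1. Among the transmembrane collagens, Col25a1 had shared peaks at its start (chr3:130180838-130181137) and 157 kb after it inside the gene (chr3:130337917-130338216). Col23a1 had a shared peak at its start and an XX-only peak deep inside, and Col13a1 had an XX-only peak 11.7 kb downstream. Col26a1 had shared peaks at chr5:136790819-136791118 and chr5:136881534-136881833 inside the gene, an XX-only peak inside and an XY-only peak 5.30 kb outside. Col28a1 had a shared peak 31.0 kb downstream and an XX-only peak inside. Of the vessel and basement membrane zone collagens, Col8a1 had 1 XX-only and Col15a1 had 1 XY-only peak, both inside the gene, and Col18a1 had none.

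Fibronectin, an adhesive glycoprotein on which other matrix is assembled, and the fibrillins, which form the microfibrils of elastic fibres, had shared peaks at gene ends. The shared peak of Fn1 was centred 342 bp from a gene end, that of Fbn1 250 bp after its start, and one of Fbn2 649 bp from a gene end. Fbn2 (chromosome 18, 58008623 to 58210572) had these peaks at chr18:58209774-58210073 and chr18:58158318-58158617, the second of them 52.1 kb inside, and an XY-only peak 18.1 kb outside. Eln, the gene of elastin itself, had a single XX-only peak inside it.

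Decorin and biglycan are small leucine-rich proteoglycans that bind collagen fibrils and growth factors. Dcn (chromosome 10, 97479500 to 97518163) had shared peaks at chr10:97409192-97409491, 70.2 kb outside its lower-coordinate end, and at chr10:97487547-97487846, inside the gene. An XX-only peak at chr10:97535393-97535692 lay between Dcn and its neighbour Lum, 17.4 kb from Dcn and 30.0 kb from Lum, and no XY peak lay between the genes. Bgn, on the X chromosome, had a shared peak 6.75 kb upstream of its start, with XX and XY centres 3 bp apart. Lum and the large proteoglycan gene Vcan had no peak. Among the matricellular genes, whose products modulate how cells adhere, Sparc had a shared peak inside the gene and an XX-only peak 8.78 kb upstream. Tnc, the gene of tenascin-C, had a shared peak 11.6 kb downstream. Postn, the gene of periostin, had an XX-only peak 647 bp upstream of its start, and the nearest XY peak lay 334230 bp away.

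**Figure D3:**
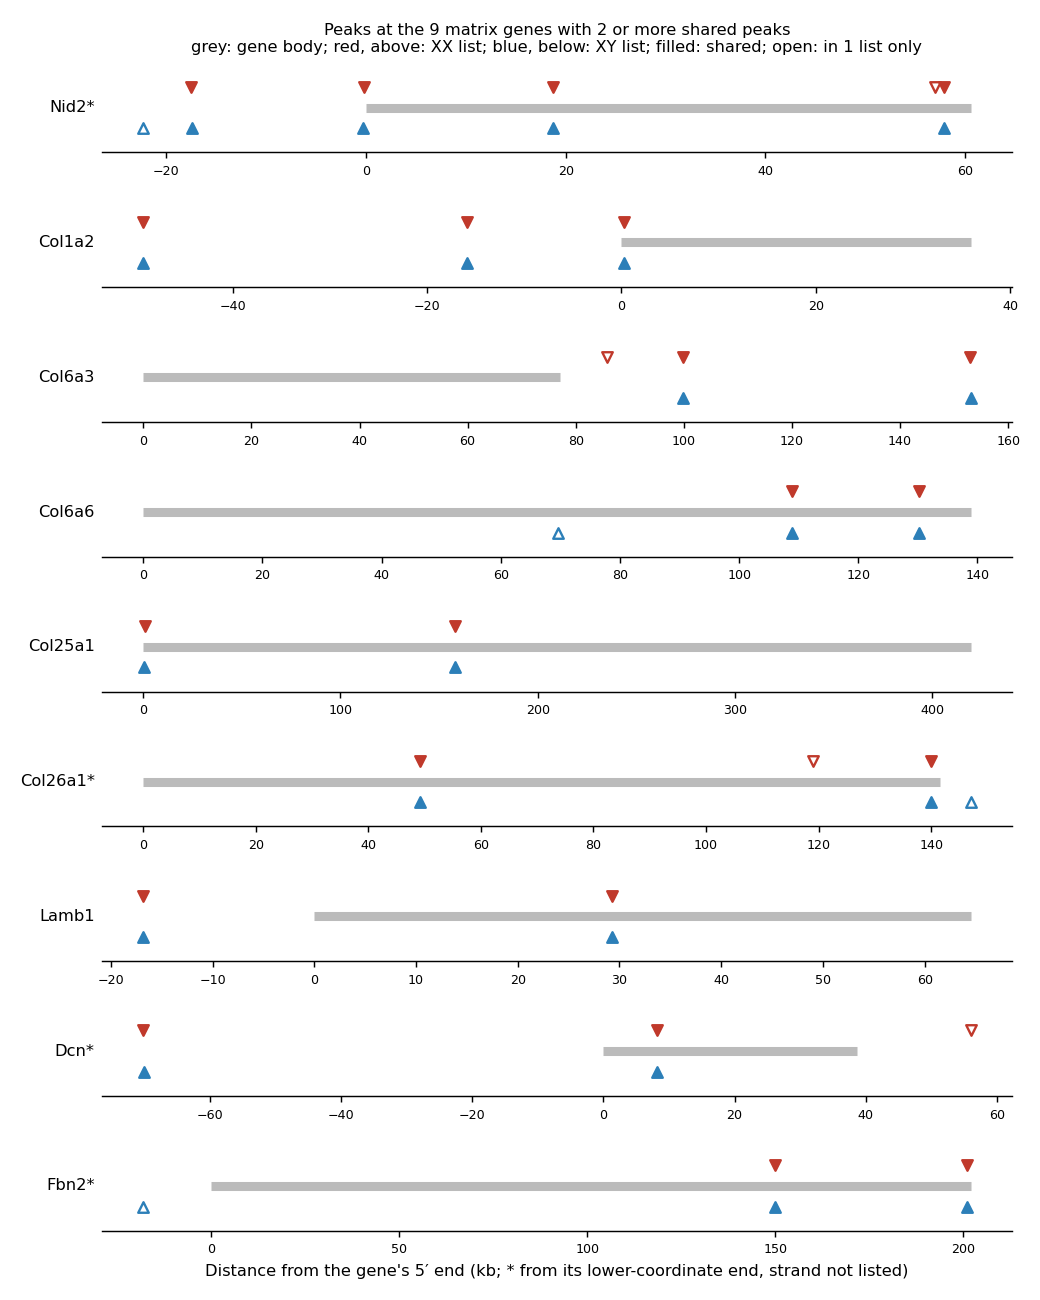
Peaks at the 9 matrix genes with 2 or more shared peaks, by distance in kb from the 5′ end of the gene, or from its lower-coordinate end where marked with an asterisk. Grey bars are gene bodies, triangles above are XX peaks and triangles below are XY peaks, filled where shared. The shared peaks of Col1a2 reach 49.2 kb upstream of the gene and those of Col6a3 lie downstream of it.

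Most shared peaks at matrix genes, such as those of Col6a3, Dcn, Nid1 and Tnc, lay away from gene ends. Of the 40, 13 (32.5%, exact 95% interval 18.6 to 49.1) lay within 1 kb of a protein-coding gene end, against 4613 of 7108 (64.9%, 63.8 to 66.0) at all other protein-coding genes. Another 13 lay deeper inside their gene (32.5%, 18.6 to 49.1, against 21.5% at other genes) and 14 lay outside it (35.0%, 20.6 to 51.7, against 13.6%). The intervals cover counting error only, peaks of 1 gene are not independent, and the difference was not tested. The share outside depends on the assignment: with a limit of 10 kb, 4 of 30 shared peaks lay outside (13.3%, against 4.94% at other genes), and with genes of all kinds competing 5 of 31 did (16.1%, against 5.05%). Shared peaks within 1 kb of an end came to 0.191 per matrix gene, against 0.211 per gene over all other protein-coding genes, and to 1.12 per megabase, against 2.44. More distant shared peaks came to 0.397 per matrix gene, against 0.114, and to 2.32 per megabase, against 1.32. By gene, 13 matrix genes (19.1%) had a shared peak near an end, against 20.5% of all protein-coding genes, and 19 (27.9%) had a distant one, against 9.67%. The matrix genes are also longer, with a median of 87.5 kb against 17.2 kb over all protein-coding genes. The part of length in the shares and densities near and away from ends was not tested.

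**Figure D4:**
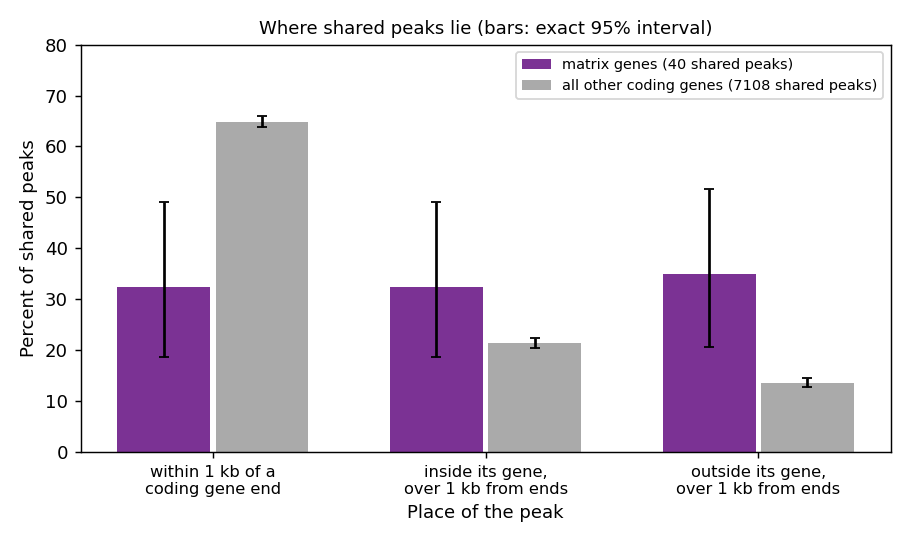
Percent of shared peaks (vertical axis) in each of 3 places, for the 40 shared peaks of matrix genes (purple) and the 7108 of all other protein-coding genes (grey), with exact 95% intervals for counting error. Of the matrix peaks 32.5% lie within 1 kb of a coding gene end, against 64.9%.

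Among the 14 distant shared peaks outside a gene, 4 lay upstream of the gene (Bgn, Lamb1 and 2 at Col1a2) and 7 lay downstream (Col4a1, Col6a3 with 2, Col24a1, Col28a1, Nid1 and Tnc). The direction of the remaining 3, at Col1a1, Dcn and Nid2, was not assigned. All 7 shared peaks near the end of a gene with a listed start were at that start, with centres between 178 bp before and 250 bp after it. The other 6, at Fn1, Fbn2, Lama1, Lama4, Lamc1 and Nid2, were at the end of a gene for which no start was used here. Of the 40 shared peaks, 9 were nearer to a gene of another kind: 1 near Lamb1 to a pseudogene and 8 to genes of long noncoding RNAs, 5 of which (at Col1a1, Col1a2, Col6a3, Dcn and Nid2) lay inside such a gene.

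**Figure D5:**
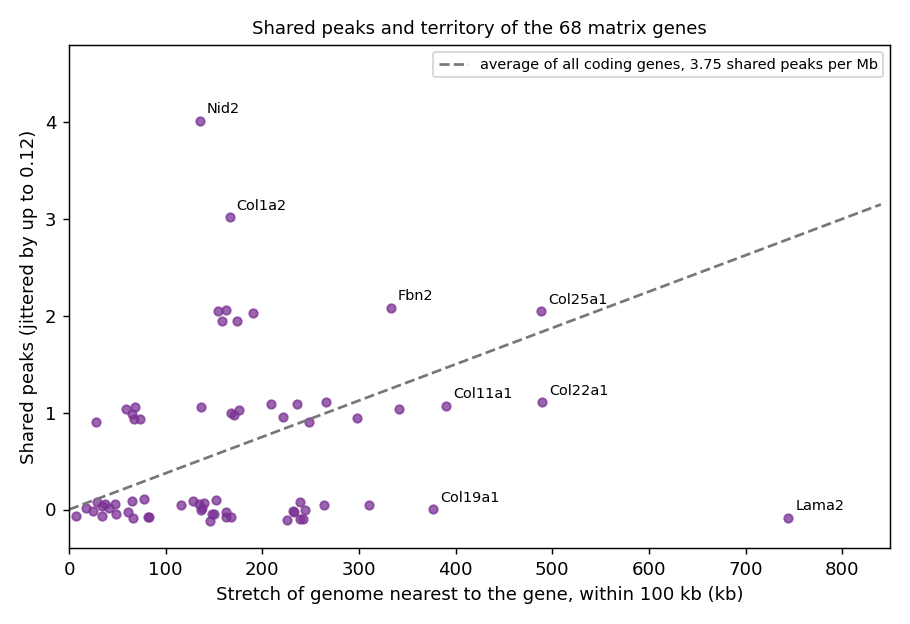
Shared peaks of each of the 68 matrix genes (vertical axis, points jittered) against the stretch of genome nearest to the gene (horizontal axis, kb). The dashed line is the average of all protein-coding genes, 3.75 shared peaks per megabase: Nid2, with 4 shared peaks on 135 kb, stands above it, and Lama2, with none on 744 kb, below it.

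RefSeq promoter windows (GRCm38.p6, the assembly of mm10), from 250 bases before to 50 after a start, were matched for 47 of the 68 genes. A shared peak, taken at its XX position, overlapped the window of 5 of these (10.6%), against 17.5% of 17492 protein-coding genes with a window. For all XX peaks it was 7 genes (14.9%, against 21.7%), and for all XY peaks 9 (19.1%, against 21.8%). The genes left out for want of a window include 6 with a shared peak near an end: Fn1, Fbn2, Lama1, Lama4, Lamc1 and Nid2. The share of 10.6% therefore does not stand for all 68 genes. The 5 windows are shown because a shared peak covers part of each, and they are written from 5′ to 3′ with the letters AGGTCA and the GC box GGGCGG, on either strand, in capitals, whether or not a peak covers them.
Col25a1 (chr3:130180595-130180894, plus strand): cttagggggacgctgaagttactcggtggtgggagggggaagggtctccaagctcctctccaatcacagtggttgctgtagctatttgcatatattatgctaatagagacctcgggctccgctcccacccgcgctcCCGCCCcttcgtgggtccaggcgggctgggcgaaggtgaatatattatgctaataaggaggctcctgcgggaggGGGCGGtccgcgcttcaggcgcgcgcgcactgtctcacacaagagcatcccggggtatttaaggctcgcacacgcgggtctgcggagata
Col11a1 (chr3:114030290-114030589, plus strand): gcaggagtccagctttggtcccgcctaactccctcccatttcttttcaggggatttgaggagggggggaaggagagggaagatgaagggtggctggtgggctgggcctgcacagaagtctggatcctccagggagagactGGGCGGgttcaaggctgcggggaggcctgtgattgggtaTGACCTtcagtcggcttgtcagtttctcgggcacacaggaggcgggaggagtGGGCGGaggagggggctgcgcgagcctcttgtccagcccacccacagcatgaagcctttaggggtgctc
Col16a1 (chr4:130047590-130047889, plus strand): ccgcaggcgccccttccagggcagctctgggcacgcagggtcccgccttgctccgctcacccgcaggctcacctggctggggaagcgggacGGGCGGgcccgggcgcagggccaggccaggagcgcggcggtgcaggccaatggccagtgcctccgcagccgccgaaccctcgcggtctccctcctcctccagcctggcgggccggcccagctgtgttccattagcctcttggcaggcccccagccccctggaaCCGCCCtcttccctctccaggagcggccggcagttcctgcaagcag
Col23a1 (chr11:51289670-51289969, plus strand): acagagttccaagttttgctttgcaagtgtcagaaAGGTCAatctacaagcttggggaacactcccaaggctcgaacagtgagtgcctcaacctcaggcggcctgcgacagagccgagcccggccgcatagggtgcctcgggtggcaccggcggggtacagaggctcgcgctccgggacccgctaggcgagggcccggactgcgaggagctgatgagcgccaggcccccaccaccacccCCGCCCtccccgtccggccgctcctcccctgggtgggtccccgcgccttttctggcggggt
Col6a2 (chr10:76623355-76623654, minus strand): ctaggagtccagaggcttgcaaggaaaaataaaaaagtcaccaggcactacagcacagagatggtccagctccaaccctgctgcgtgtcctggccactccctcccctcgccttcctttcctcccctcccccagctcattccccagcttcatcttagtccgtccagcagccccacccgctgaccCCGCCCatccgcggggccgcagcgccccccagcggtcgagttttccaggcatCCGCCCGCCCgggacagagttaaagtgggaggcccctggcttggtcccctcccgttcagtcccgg

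The GC box occurs in all 5 windows, and AGGTCA in 2. In the Col11a1 window, 62.3% G and C, AGGTCA stands as TGACCT at base 180, that is 71 bases before the start. The XX peak there (chr3:114030370-114030669) covers bases 81 to 300 and the XY peak bases 47 to 300, so both hold it and the GC boxes at bases 141 and 232. In Col23a1 AGGTCA stands at base 36, inside the XX peak (chr11:51289593-51289892), which covers bases 1 to 223, and inside the XY peak, which covers bases 1 to 242. The GC box of that window, from base 240, begins beyond the XX peak and runs past the edge of the XY peak. In Col25a1 the XX peak covers bases 244 to 300 and leaves out the GC boxes at bases 137 and 211, while the XY peak covers bases 91 to 300 and holds them. In Col16a1 the XX peak (chr4:130047755-130048054) covers bases 166 to 300 and the XY peak bases 107 to 300. Both hold the GC box at base 255 and neither the one at base 92. In Col6a2 the XX peak (chr10:76623207-76623506) covers bases 149 to 300 and the XY peak bases 59 to 300, and both hold the GC boxes at bases 184, 236 and 240, of which the last 2 overlap. AGGTCA was present in 9 of the 53 windows of matrix genes (17.0%), in 16.1% of the 3364 windows of protein-coding genes that a shared peak overlapped, and in 14.7% of all 21263. For the GC box the counts were 32 of 53 matrix windows (60.4%), 70.9% of windows with a shared peak and 46.2% of all. The windows with a shared peak were also richer in G and C, with a median of 63.3% against 56.3% over all windows. AGGTCANAGGTCA, the direct repeat with 1 base between, was in none of the 53 matrix windows and in 0.0892% of windows with a shared peak. These are matches of letters and not binding sites.

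The windows of the Col4a1 and Col4a2 pair are shown because the lists placed different peaks there, and that of Col3a1 because its peak was XY-only. They were chosen after the values were seen.
Col4a1 (chr8:11312777-11313076, minus strand): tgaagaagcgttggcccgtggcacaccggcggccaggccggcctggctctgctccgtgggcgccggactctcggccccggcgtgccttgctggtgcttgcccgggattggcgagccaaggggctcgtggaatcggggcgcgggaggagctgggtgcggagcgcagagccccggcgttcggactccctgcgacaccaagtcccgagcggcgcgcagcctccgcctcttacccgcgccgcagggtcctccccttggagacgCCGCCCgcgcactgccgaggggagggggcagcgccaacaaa
Col4a2 (chr8:11312555-11312854, plus strand): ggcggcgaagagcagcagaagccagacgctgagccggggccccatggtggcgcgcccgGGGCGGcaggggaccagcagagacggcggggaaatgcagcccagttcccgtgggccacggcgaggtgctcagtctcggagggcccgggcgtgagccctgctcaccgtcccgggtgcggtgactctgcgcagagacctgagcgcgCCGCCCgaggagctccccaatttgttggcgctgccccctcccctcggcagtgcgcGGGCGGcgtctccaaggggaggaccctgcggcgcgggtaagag
Col3a1 (chr1:45311288-45311587, plus strand): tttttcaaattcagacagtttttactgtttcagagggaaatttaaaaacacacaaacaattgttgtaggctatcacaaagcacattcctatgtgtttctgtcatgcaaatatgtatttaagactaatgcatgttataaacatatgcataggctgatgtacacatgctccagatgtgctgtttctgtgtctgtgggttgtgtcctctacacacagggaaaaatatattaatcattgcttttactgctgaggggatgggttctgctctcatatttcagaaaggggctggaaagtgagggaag

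The XX-only peak covers bases 1 to 139 of the Col4a1 window, and the XY-only peak covers its bases 274 to 300 and bases 1 to 249 of the Col4a2 window. Both windows are rich in G and C, at 74.0% and 73.7%, and hold 1 and 3 GC boxes, of which 1 is common to both because the windows overlap. The Col3a1 window, of which the XY-only peak covers bases 70 to 300, is 37.7% G and C and has neither motif.

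Between XX and XY mesonephroi, sharing at matrix genes was close to that of the whole lists. Of the 62 XX peaks 64.5% were shared (exact 95% interval 51.3 to 76.3), against 67.0% of all other XX peaks, and of the 52 XY peaks 76.9% were (63.2 to 87.5), against 76.0%. The centres of shared matrix peaks lay a median of 29.5 bp apart, against 33 bp over all shared peaks. Matrix genes with an XX-only peak numbered 21 (30.9%, against 13.2% of all protein-coding genes), and those with an XY-only peak 12 (17.6%, against 9.55%). Matrix genes also have longer stretches of genome, with a median of 153 kb against 45.0 kb, and the part of length in both shares was not tested. XX peaks and no XY peak were found at 9 genes, among them Col13a1, Col4a2, Col4a4, Col4a6, Col8a1, Eln, Lama3 and Postn. Col4a2 counts among them only by the assignment: an XY-only peak covers bases 1 to 249 of its promoter window but was given to Col4a1. XY peaks and no XX peak were found at 5 (Col14a1, Col15a1, Col3a1, Col5a1 and Col6a5). A peak in either list was present at 61.8% of matrix genes, in the XX list at 54.4% and in the XY list at 48.5%. Over all protein-coding genes these shares were 42.2%, 36.9% and 35.0%. Genes with an XX peak and no XY peak are those with a peak in either list less those with an XY peak. The XX list is also the longer of the lists. Of the 22 XX-only peaks, 13 lay inside a gene over 1 kb from any end (59.1%, exact 95% interval 36.4 to 79.3). Over all XX-only peaks given to a gene this share was 34.2%. Another 4 lay within 1 kb of an end (18.2%, 5.19 to 40.3, against 38.3%), at Lamc1, Postn, Col24a1 and Col4a2. Of the 12 XY-only peaks, 5 lay inside (41.7%, 15.2 to 72.3, against 26.2% of all XY-only peaks given to a gene). Another 4 lay near an end (33.3%, 9.92 to 65.1, against 58.1%), at Col3a1, Lamc1, Col5a1 and Col4a1. The share inside was also higher for shared matrix peaks (32.5%, against 21.5% at other genes). The part of gene length in these places was not tested. A peak of the other list lay within 1 kb of 3 XX-only peaks (Col4a2, Lamc1 and Nid2) and of 2 XY-only peaks (Col4a1 and Lamc1), and beyond 100 kb from 9 XX-only and 5 XY-only peaks. Whether any of these genes differed between the sexes was not tested, since the lists carry no signal and no replicates.

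No peak of either list was given to 26 matrix genes, while 61.8% had one, against 42.2% of all protein-coding genes. Besides those named above, they were Col7a1, which anchors basement membrane to dermis, the cartilage genes Col9a1, Col9a2, Col9a3 and Col10a1, the epithelial gene Col17a1, and Col8a2, Col12a1, Col19a1 and Col20a1. Their stretches of genome had a median of 72 kb, against 170 kb for matrix genes with a peak, and 12.6 shared peaks would fall to them together at the average density. These genes were grouped by having no peak, so that figure is no test.

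Genes that act on the same matrix were taken from 6 lists of 94 genes in all. A shared peak was found at 22 of them, which is 10 of 23 enzymes of collagen folding and cross-linking, 6 of 20 other matricellular and adhesive proteins, 3 of 13 other basement membrane components, 2 of 17 elastic fibre and microfibril components, 1 of 10 genes of hyaluronan and its proteoglycans and 0 of 11 other small leucine-rich proteoglycans. The background was 28.2% of all protein-coding genes, which the 22 of 94 did not reach. The enzymes stood above it, the matricellular and adhesive proteins were close to it, and the other lists stood below it. The part of gene length in these counts was not tested. Among the enzymes, Loxl1, a lysyl oxidase that cross-links elastin and collagen, had 2 shared peaks, and the prolyl hydroxylase gene P4ha1 and the lysyl hydroxylase genes Plod2 and Plod3 had 1 each. Tgfbi and Spock1 had 2 each, and Ccn2, a matricellular gene known as a TGF-beta target, had 1. Ltbp1, whose product holds latent TGF-beta in the matrix, had 5 XX and 2 XY peaks, of which 2 were shared. In the hyaluronan list the only shared peak was at Has1, while Has2, the main hyaluronan synthase of embryonic mesenchyme, had 2 XX-only peaks and no XY peak.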

How the data were processed

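COUP-TFII ChIP-seq was done on E14.5 mesonephroi (2 XX, 2 XY and 2 pooled input samples). The authors deposited 1 peak list per sex, with start and end positions on mm10 as the only values, and the labels of both replicates of a sex name the same list. The submitters' processing notes list Bowtie 1.2, HOMER 4.10.3, bedtools 2.24.0, cutadapt and Picard, and the build mm10, with no role for each. Neither peak threshold nor replicate handling is given in the sources used here. In the labels, extraction text names RUNX1 and fetal ovaries, while titles, antibody and design name COUP-TFII and mesonephroi, which were followed. Input and coverage tracks were not used here.

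Gene positions and promoter windows came from RefSeq tables (GRCm38.p6), without exons, and strand was taken from the windows. Distances run from peak centres, and ties go to the nearer gene end. Territories were counted every 500 bp. Intervals are Clopper-Pearson, 95%. Assignment and overlap were tested on simulated data, and bedtools gave the same 7483 shared peaks over both lists. Python 3.11.15, pandas 2.3.3 and scipy 1.17.1 were used. Members and lists were chosen with earlier results of these data known. Positions are printed for genes with 2 or more shared peaks, shared peaks in promoter windows, 2 or more peaks in 1 list only, or peaks between neighbouring members. Others are examples named after their values were seen. Alternatives changed the shared-peak rule, distance limit, distance measure and competing genes. One member counts in the totals but is not reported here by itself.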

Additional observations from a re-analysis of the deposited data

How the results depend on the processing

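The rules for sharing and assignment had 7 alternatives, and gene ends were also widened to 2.5 kb. Places of shared peaks, densities, genes with several shared peaks and peaks in 1 list only were added to the results recomputed after the data were seen. Shared peaks outside their gene, 14 of 40 (35.0%), numbered 4 of 30 (13.3%) with a limit of 10 kb and 5 of 31 (16.1%) when genes of all kinds competed, since both rules take away peaks outside genes. With the limit of 10 kb, genes with 2 or more shared peaks numbered 5, against 9. No other count recomputed moved by over 1.5 times and no other share left its 95% interval. Distant shared peaks came to 1.91 to 2.4 per megabase at matrix genes, against 1.04 to 1.44 at other genes. Matrix genes with a shared peak numbered 24 to 29 around 28, shared peaks 30 to 43 around 40, XX peaks 49 to 65 around 62, and XY peaks 40 to 53 around 52. With a limit of 10 kb, Col28a1, Col4a1, Col6a3 and Tnc lost their shared peaks. When genes of all kinds competed, Col1a1, Col28a1, Col4a1 and Col6a3 lost theirs to genes of long noncoding RNAs, and 41.9% of the remaining shared peaks lay within 1 kb of a coding gene end, against 71.9% at other genes (43.3% against 71.4% with the limit of 10 kb). With centres required within 100 bp, Col1a1 had no shared peak. With peaks within 1 kb counted as shared, Col4a2 gained one. Leaving out members whose product is no matrix protein was not run, since all members, also the 4 transmembrane collagens, were counted as matrix proteins. A stricter peak threshold was not run because the lists carry no score. Replicates could not be left out, and no paired analysis was possible because each sex has 1 peak list over both replicates. The unknown depth limits what a missing peak means.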

Other observations

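Peaks nearest to a matrix gene but farther than 100 kb from it were found at 3 genes. Lama2 had an XX peak at chr10:27728630-27728929 and an XY peak at chr10:27728698-27728997, which overlap each other, 112 kb outside the gene. These are the closest peaks beyond the limit, and with a limit of 500 kb Lama2 would count as a gene with a shared peak. Dcn had a further XX peak 166 kb outside the gene, and Fn1 had one at 192 kb.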
